A study of Mus musculus with 16 samples.

Results

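The 10 genes of the connective tissue of the thyroid gland described here are Pdgfra, Dcn, Lum, Bgn, Fmod, Ogn, Vcan, Fn1, Sparc and Postn. They were chosen by name as a fibroblast receptor, small leucine-rich proteoglycans and non-collagen glycoproteins of the extracellular matrix (ECM), and they are 10 of the 25611 gene entries of the count table. Each occurs once in it, and all 10 had enough counts to be among the 16630 genes tested.

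RNA-Seq had been performed on thyroid glands of 16 female C57BL/6 mice in 4 groups of 4, aged 1 month by the labels and 4 weeks by the study's methods. WT(ND) mice were labelled WT and ate the NIH-31 normal diet (ND), and WT(LID) mice of the same genotype ate the low-iodine diet TD.95125 (LID) for 6 days after weaning at 3 weeks. The Glis3-Pax8Cre mice of both diet groups, Glis3-Pax8Cre(ND) and Glis3-Pax8Cre(LID), carried the floxed Glis3 allele Glis3<tm2Amj> with the Cre allele Pax8<tm1.1(cre)Mbu>, so that exon 5 of Glis3, which encodes part of the zinc finger domain of this transcription factor, was deleted in cells that express Pax8. In the thyroid gland these are the follicular epithelial cells, so the deletion was directed to cells other than the fibroblasts, and whether the WT mice carried the floxed or the Cre allele is not stated in the sources used here. The comparisons asked how 6 days of iodine shortage altered the gland and how loss of GLIS3 function in follicular cells altered that response.

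Fibroblasts lie in the capsule and septa of the thyroid gland and around its follicles and capillaries, and they secrete much of the matrix between them. Small leucine-rich proteoglycans such as decorin and biglycan bind collagen fibrils and shape their assembly, while versican holds water and hyaluronan in loose, newly laid matrix, and fibronectin, SPARC and periostin link collagen, growth factors and cell surface integrins. A low-iodine diet raises the level of thyroid-stimulating hormone (TSH) and leads to a goitre, in which follicles, capillaries and stroma are remodelled together.

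Between 13892352 and 461077969 read pairs per mouse had been counted on genes, and values are given as CPM, the count scaled to a common library size with the TMM method of edgeR. A count of 0 allows up to 3 counts, or between 0.00651 and 0.216 CPM by library, for counting error only, and the lowest count of any of the 10 genes in any mouse was 59, for Fmod. Tg, which encodes thyroglobulin, took from 7.87% to 29.3% of a library, and its share was lower in Glis3-Pax8Cre mice. It ran from 21.4% to 29.3% in WT(ND) and from 19.6% to 26.8% in WT(LID). In Glis3-Pax8Cre(ND) it ran from 13.5% to 18.7%, and in Glis3-Pax8Cre(LID) from 7.87% to 13.2%. Counts over all Glis3 exons, which ran from 45.2 to 85.8 CPM among WT(ND) mice and from 85.8 to 105 CPM among Glis3-Pax8Cre(ND) mice, do not check the deletion, since the other exons are still counted. In each group 1 mouse stood apart in markers of thymocytes, which are not thyroid cells, with summed levels of 172 CPM in WT(ND) replicate 1, 2920 CPM in Glis3-Pax8Cre(ND) replicate 4, 244 CPM in WT(LID) replicate 3 and 360 CPM in Glis3-Pax8Cre(LID) replicate 4. Calls that were lost without these 4 mice are named with the genes they touch.

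In WT mice the LID went with more RNA of 5 of the 10 genes and less of 2. A gene was called at a p under 0.05 in the quasi-likelihood test of edgeR, adjusted by Benjamini-Hochberg for every gene in the fit, and 20.9% of all genes were called higher and 20.8% lower here, and the median log2 fold change was 0.92 over the 10 genes against -0.03 over all genes. The 5 genes with more RNA were the proteoglycans Bgn and Vcan and the glycoproteins Fn1, Sparc and Postn, and the 2 with less were the receptor Pdgfra and the proteoglycan Dcn. In Glis3-Pax8Cre(LID) compared to WT(LID), 4 of the 10 were lower, namely Bgn, Vcan, Sparc and Postn, and 0 were higher, where 15.4% of all genes were called lower and 14.9% higher. At an unadjusted p under 0.05 edgeR had 1 gene higher, Fn1, DESeq2 also called 0 higher, and scaling by library size alone called 1. Groups did not overlap for 5 genes higher and 2 lower in WT with the LID, against 23.7% and 23.3% of all genes, and for 1 higher and 5 lower between the LID groups, against 17.7% and 17.9%. These are whole glands, in which fewer cells of a type and less RNA per cell cannot be told apart.

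**Figure D1:**
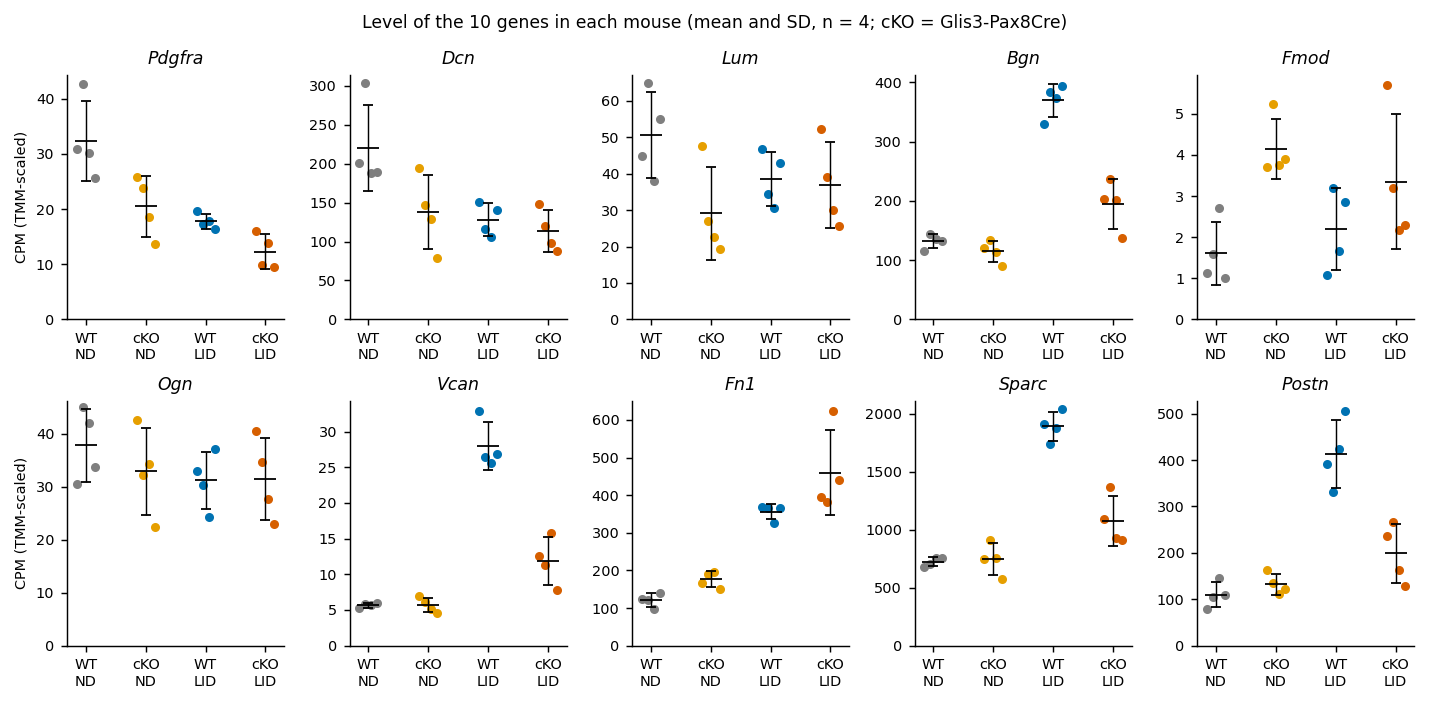
Level of each of the 10 genes in each of the 16 mice, in CPM of the TMM-scaled library size on linear axes from 0, by group, where cKO stands for Glis3-Pax8Cre; points are mice, and bars give the mean and SD of 4 mice. Bgn, Vcan, Sparc and Postn are highest in the 4 WT(LID) mice, with no overlap with any other group, Fn1 is high in both LID groups, and Pdgfra and Dcn are highest on average in WT(ND).

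Pdgfra (Entrez 18595, chr5:75152251-75198206, mm10, + strand) encodes the PDGF receptor that marks fibroblasts in most organs. The WT(ND) mice, with replicates 1 to 4 in order here and for every gene, had 31.0, 42.7, 30.2 and 25.6 CPM, and the WT(LID) mice 19.7, 17.3, 17.8 and 16.4 CPM. Levels of 25.8, 23.8, 18.5 and 13.7 CPM were measured in the Glis3-Pax8Cre(ND) mice and of 16.1, 9.94, 13.8 and 9.42 CPM in the Glis3-Pax8Cre(LID) mice. All WT(LID) mice lay below all WT(ND) mice, all Glis3-Pax8Cre(LID) mice lay below all WT(LID) mice, and the Glis3-Pax8Cre(ND) mice overlapped every other group. The LID went with a 1.82-fold lower level in WT (log2 fold change -0.86 ± 0.21 SE, adjusted p = 0.00379). Under ND the level was 1.58-fold lower in Glis3-Pax8Cre than in WT (-0.66 ± 0.21, adjusted p = 0.0362), and within Glis3-Pax8Cre it was 1.66-fold lower with the LID (-0.73 ± 0.21, adjusted p = 0.0188). The difference of Glis3-Pax8Cre(LID) from WT(LID), -0.53 ± 0.21, did not pass the test (adjusted p = 0.0653), and the interaction of genotype and diet, the difference between the diet responses of the 2 genotypes, was 0.13 with a 95% interval from -0.49 to 0.75.

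Of these 3 calls for Pdgfra, only its fall in WT with the LID kept the call when each of the 16 mice was left out in turn. The ND difference between genotypes missed the threshold without WT(ND) replicate 1 (adjusted p = 0.0702), WT(ND) replicate 2 (0.123), Glis3-Pax8Cre(ND) replicate 3 (0.0873), Glis3-Pax8Cre(ND) replicate 4 (0.0840) and WT(LID) replicates 2 (0.0523) and 3 (0.0510), and also without the 4 mice highest in thymocyte markers (0.116), with library size alone (0.0758) and in the fit of the 8 ND mice alone (0.0967). The diet difference within Glis3-Pax8Cre missed it without Glis3-Pax8Cre(ND) replicate 1 (0.0566) or 2 (0.0582), without Glis3-Pax8Cre(LID) replicate 2 (0.0582) or 4 (0.0572), and in the fit of the 8 Glis3-Pax8Cre mice alone (0.0660), but passed it in those 8 mice with replicate numbers as pairs (0.0174). In the other direction, Glis3-Pax8Cre(LID) differed from WT(LID) at an adjusted p of 0.0292 without Glis3-Pax8Cre(ND) replicate 4 and of 0.0278 without Glis3-Pax8Cre(LID) replicate 1, at 0.0440 in DESeq2, at 0.0297 in the fit of the 8 LID mice alone and at 0.0467 with the thymocyte marker score as a covariate. A microRNA gene, Mir7025, lies within Pdgfra on the same strand, with at most 6 counts in any mouse.

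Dcn (Entrez 13179, chr10:97479500-97518163, + strand) encodes decorin, which binds collagen fibrils and sequesters TGF-beta. Its level was 201, 303, 188 and 189 CPM in the 4 WT(ND) mice, and 150.3, 115, 106 and 141 CPM in the 4 WT(LID) mice. The Glis3-Pax8Cre(ND) mice had 194, 147, 129 and 79.3 CPM, and the Glis3-Pax8Cre(LID) mice had 148, 120.2, 98.3 and 87.9 CPM. The WT(ND) mice lay above the WT(LID) and Glis3-Pax8Cre(LID) mice without overlap, and the other groups overlapped. In WT the level was 1.72-fold lower with the LID (-0.78 ± 0.24, adjusted p = 0.0181), a call that was lost without WT(ND) replicate 2, the mouse at 303 CPM (-0.59, adjusted p = 0.0689), without WT(LID) replicate 2 (-0.73, 0.0537) and without WT(LID) replicate 3 (-0.69, 0.0582). The other differences did not pass the test, with -0.68 for genotype under ND (adjusted p = 0.0627), -0.17 for genotype under LID (0.644) and -0.27 for diet within Glis3-Pax8Cre (0.431). The ND difference passed it without Glis3-Pax8Cre(ND) replicate 1 (-0.89, adjusted p = 0.0211), in DESeq2 (-0.67, 0.0299) and with the thymocyte marker score as a covariate (-0.73, 0.0203).

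Lum (Entrez 17022, chr10:97565501-97572703, + strand) follows Dcn on the chromosome and encodes lumican, a keratan sulfate proteoglycan of collagen fibrils. WT(ND) mice had 44.9, 64.8, 37.9 and 55.0 CPM, and WT(LID) mice 46.6, 34.3, 30.6 and 42.8 CPM. The 4 Glis3-Pax8Cre(ND) mice stood at 47.7, 26.9, 22.7 and 19.2 CPM, and the 4 Glis3-Pax8Cre(LID) mice at 52.4, 39.1, 30.0 and 25.6 CPM. All 4 groups overlapped, although 3 of the 4 Glis3-Pax8Cre(ND) mice were below every WT(ND) mouse. No difference passed the test, and the nearest was genotype under ND (-0.81 ± 0.28, adjusted p = 0.0584). That difference was -1.14 (adjusted p = 0.00699) without Glis3-Pax8Cre(ND) replicate 1, the mouse at 47.7 CPM, -0.91 (0.0455) without WT(ND) replicate 3 and -0.81 (0.0475) without Glis3-Pax8Cre(LID) replicate 1. It was called as well in DESeq2 (-0.79, adjusted p = 0.0218) and with the thymocyte marker score as a covariate (-0.83, 0.0242). The difference between the LID groups, -0.07 with an interval from -0.67 to 0.53, turned to 0.07 with scaling by library size alone.

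Bgn (Entrez 12111, chrX:73483601-73495936, + strand) encodes biglycan, the closest relative of decorin, with a pair of chondroitin or dermatan sulfate chains. Its level was 116, 143, 135 and 133 CPM in the 4 WT(ND) mice, and 330.4, 383, 373 and 394 CPM in the 4 WT(LID) mice. The Glis3-Pax8Cre(ND) mice had 119.7, 134, 115 and 89.8 CPM, and the Glis3-Pax8Cre(LID) mice had 203, 238, 201 and 137 CPM. The ND groups overlapped each other, and the 4 WT(LID) mice lay above all Glis3-Pax8Cre(LID) mice, which in turn lay above all Glis3-Pax8Cre(ND) mice. Bgn rose 2.81-fold with the LID in WT (1.49 ± 0.15, adjusted p = 1.99e-06) and 1.70-fold in Glis3-Pax8Cre (0.76 ± 0.15, adjusted p = 0.00172). Under LID it was 1.90-fold lower in Glis3-Pax8Cre than in WT (-0.93 ± 0.15, adjusted p = 0.000219), and under ND the difference was -0.20 with an interval from -0.51 to 0.11. The interaction was -0.73 ± 0.21 (adjusted p = 0.0334), and it missed the threshold in 9 of the 16 fits that left out a mouse. These were the fits without WT(ND) replicate 1 (adjusted p = 0.0593) or 4 (0.0501), Glis3-Pax8Cre(ND) replicate 1 (0.0546), 2 (0.0678) or 3 (0.0511), WT(LID) replicate 2 (0.0569), 3 (0.0533) or 4 (0.0689), and Glis3-Pax8Cre(LID) replicate 1 (0.0506).

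Dcn and Bgn, which encode sister proteins, stood in another proportion to each other on the 2 diets. Per kb of exon, the mean level of Dcn was 114 ± 28.8 CPM per kb (SD, n = 4) in WT(ND) and 66.1 ± 10.8 in WT(LID), and that of Bgn was 54.5 ± 4.80 and 153 ± 11.5. The ratio of Bgn to Dcn per kb ran from 0.379 to 0.577 in WT(ND), from 0.494 to 0.908 in Glis3-Pax8Cre(ND), from 1.10 to 1.64 in Glis3-Pax8Cre(LID) and from 1.76 to 2.83 in WT(LID). The ratio was below 1 in all 8 ND mice and above 1 in all 8 LID mice, and the 2 LID groups did not overlap, while the 2 ND groups did.

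**Figure D2:**
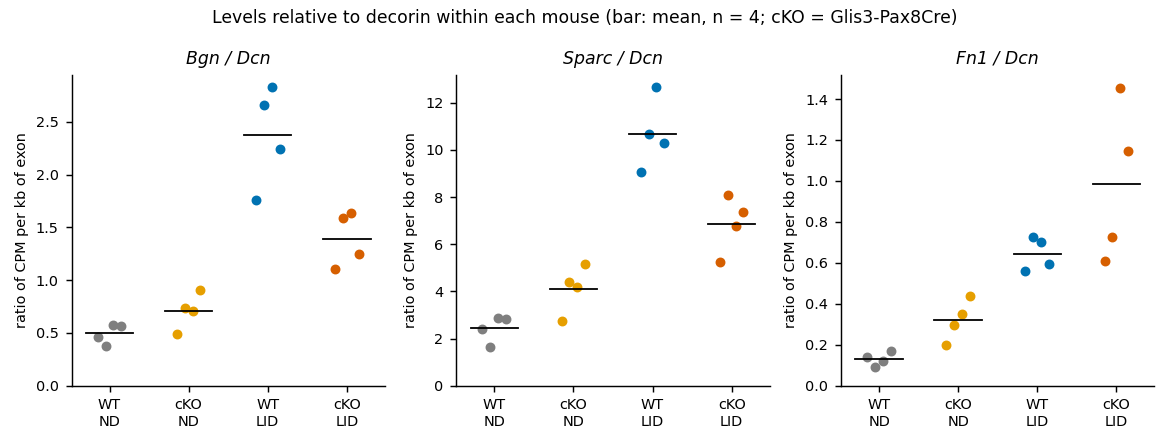
Ratio of the level of Bgn, Sparc and Fn1 to that of Dcn within each mouse, each in CPM per kb of exon on linear axes from 0, by group, where cKO stands for Glis3-Pax8Cre; points are mice and bars are means of 4. The Bgn to Dcn ratio lies between 0.379 and 0.908 in the ND mice and between 1.10 and 2.83 in the LID mice, and WT(LID) lies above Glis3-Pax8Cre(LID) for Bgn and Sparc but not for Fn1.

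Fmod and Ogn are 2 further small leucine-rich proteoglycans, and neither passed the test for the LID. Fmod (Entrez 14264, chr1:134037515-134048277, + strand), which encodes the fibromodulin of tendon and cartilage, was low throughout. The 4 levels of 1.14, 1.60, 2.70 and 1.02 CPM in WT(ND) mice lay below those of 3.70, 5.23, 3.77 and 3.91 CPM in the Glis3-Pax8Cre(ND) mice. WT(LID) mice had 1.07, 3.20, 1.65 and 2.85 CPM and Glis3-Pax8Cre(LID) mice 5.71, 3.21, 2.18 and 2.30 CPM, and these groups overlapped each other. Under ND it was 2.59-fold higher in Glis3-Pax8Cre (1.37 ± 0.39, adjusted p = 0.0241). The call was lost without WT(ND) replicate 1 (adjusted p = 0.0732), 2 (0.0588) or 4 (0.0766), without Glis3-Pax8Cre(ND) replicate 2 (0.0554), and without the 4 mice highest in thymocyte markers (0.0997). The sum over 9 cartilage marker genes was also higher in Glis3-Pax8Cre under ND, from 46.7 to 62.2 CPM against 19.5 to 33.2 in WT(ND). Unlike Fmod it was highest in Glis3-Pax8Cre(LID), from 63.5 to 91.3 CPM, with 40.8 to 51.6 in WT(LID). Of the 6 cartilage markers tested, 4 were called higher and 1 lower in Glis3-Pax8Cre under ND, against 10.3% and 9.25% of all genes. The part of cartilage in the Fmod difference was not tested.

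Ogn (Entrez 18295, chr13:49608071-49624500, + strand) encodes osteoglycin, also named mimecan. WT(ND) mice had 30.5, 45.1, 42.0 and 33.7 CPM, and WT(LID) mice 33.0, 30.3, 24.4 and 37.2 CPM. The 4 Glis3-Pax8Cre(ND) mice stood at 42.6, 32.2, 34.4 and 22.5 CPM, and the 4 Glis3-Pax8Cre(LID) mice at 40.6, 34.6, 27.8 and 22.9 CPM. All groups overlapped, and the ratio of the highest to the lowest group mean, 1.21, was the smallest of the 10 genes. No difference of Ogn passed the test, and the log2 fold changes were -0.28 for diet in WT (-0.38, adjusted p = 0.0391, with the thymocyte marker score as a covariate), 0.01 for genotype under LID with an interval from -0.43 to 0.45, -0.20 for genotype under ND and -0.06 for diet in Glis3-Pax8Cre. Cenpp overlaps Ogn on the opposite strand and counting was without regard to strand, so reads on bases shared by exons of both could not be assigned by strand, and how many there were was not tested.

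Several small leucine-rich proteoglycan genes are neighbours on their chromosomes. On chromosome 10 Dcn and Lum are followed by Kera, which was too low to be tested, and Epyc. On chromosome 13 Ogn lies beside Omd, Aspn and Ecm2, and on chromosome 1 Fmod lies near Prelp and Optc. Of these neighbours Aspn, which encodes the asporin of collagen fibrils, rose with the LID in WT, from a mean of 30.8 to 67.2 CPM (1.12, adjusted p = 0.000381), while Ogn beside it did not pass the test. Over the 12 other small leucine-rich proteoglycan genes tested, 1 was called higher and 1 lower with the LID in WT, the latter being Chadl (-1.38), which encodes a chondroadherin-like protein. Between the LID groups 1 was again called in each direction, the lower one being Tsku, which encodes tsukushi (-0.46, adjusted p = 0.0236). Their median was -0.23 in the first comparison and -0.35 in the second.

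Vcan (Entrez 13003, chr13:89655310-89742512, - strand) encodes versican, a large chondroitin sulfate proteoglycan that binds hyaluronan. Its level was 5.23, 5.81, 5.64 and 5.93 CPM in the 4 WT(ND) mice, and 32.9, 26.4, 25.6 and 26.8 CPM in the 4 WT(LID) mice. The Glis3-Pax8Cre(ND) mice had 6.96, 6.08, 5.16 and 4.59 CPM, and the Glis3-Pax8Cre(LID) mice had 12.5, 11.4, 15.8 and 7.79 CPM. The ND groups overlapped, and each LID group lay apart from every other group, with WT(LID) at the top. Of the 10 genes Vcan had the largest response to the LID in WT, 4.94-fold (2.30 ± 0.18, adjusted p = 1.99e-07), and it rose 2.10-fold in Glis3-Pax8Cre (1.07 ± 0.18, adjusted p = 0.000569). Under LID it was 2.35-fold lower in Glis3-Pax8Cre (-1.23 ± 0.18, adjusted p = 8.38e-05), and under ND the difference was 0.00 with an interval from -0.37 to 0.38. The interaction was -1.24 ± 0.25 (adjusted p = 0.00443) and kept its call without each mouse in turn, with an adjusted p of at most 0.0111.

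Sparc (Entrez 20692, chr11:55394159-55420080, - strand) encodes SPARC or osteonectin, a collagen-binding matricellular protein, and per kb of exon it had the highest mean of the 10 genes in every group. WT(ND) mice had 677, 706, 757 and 752 CPM, and WT(LID) mice 1914, 1734, 1878 and 2037 CPM. The 4 Glis3-Pax8Cre(ND) mice stood at 744, 908, 758 and 576 CPM, and the 4 Glis3-Pax8Cre(LID) mice at 1090.2, 1367, 932 and 907 CPM. WT(LID) lay above every other group, and Glis3-Pax8Cre(LID) lay between it and WT(ND) but shared its lower end with Glis3-Pax8Cre(ND). Sparc rose 2.61-fold with the LID in WT (1.39 ± 0.14, adjusted p = 2.58e-06) and under LID it was 1.76-fold lower in Glis3-Pax8Cre than in WT (-0.82 ± 0.14, adjusted p = 0.000437). The rise within Glis3-Pax8Cre, 1.44-fold (0.52 ± 0.14, adjusted p = 0.0133), was lost with scaling by library size alone (0.40, adjusted p = 0.0524) and in the fit of the 8 Glis3-Pax8Cre mice alone (0.52, adjusted p = 0.0860), but not in those 8 mice with replicate numbers as pairs (0.52, adjusted p = 0.0247). Genotype under ND gave 0.05 with an interval from -0.25 to 0.34, and the interaction was -0.86 ± 0.20 (adjusted p = 0.0107).

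Postn (Entrez 50706, chr3:54361107-54391041, + strand) encodes periostin, a matricellular protein of tissues under repair and strain. Its level was 78.9, 106, 146 and 109 CPM in the 4 WT(ND) mice, and 392, 332, 423 and 506 CPM in the 4 WT(LID) mice. The Glis3-Pax8Cre(ND) mice had 163, 135, 110.3 and 123 CPM, and the Glis3-Pax8Cre(LID) mice had 236, 267, 164 and 128 CPM. WT(LID) again lay above all other mice, and the 2 Glis3-Pax8Cre groups overlapped. Postn rose 3.76-fold with the LID in WT (1.91 ± 0.23, adjusted p = 1.50e-05) and was 2.08-fold lower in Glis3-Pax8Cre(LID) (-1.05 ± 0.23, adjusted p = 0.00244). Within Glis3-Pax8Cre the diet difference was 0.58 ± 0.23 and missed the threshold (adjusted p = 0.0695), while it was called in DESeq2 (adjusted p = 0.0403), without Glis3-Pax8Cre(LID) replicate 4 (0.75, adjusted p = 0.0219), without the 4 mice highest in thymocyte markers (0.71, adjusted p = 0.0343) and with replicate numbers as pairs in the 8 Glis3-Pax8Cre mice (0.53, adjusted p = 0.0395). The interaction was -1.33 ± 0.32 (adjusted p = 0.0138), the largest of the 10 in size, and stood at -1.06 (adjusted p = 0.0520) without the 4 mice highest in thymocyte markers.

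Fn1 (Entrez 14268, chr1:71585473-71653234, - strand) encodes fibronectin, the glycoprotein through which integrins hold cells to the matrix, and its order of groups differed from that of the 4 genes above. WT(ND) mice had 124, 122, 97.0 and 141 CPM, and WT(LID) mice 368, 366, 325 and 366 CPM. The 4 Glis3-Pax8Cre(ND) mice stood at 168, 191, 197 and 151 CPM, and the 4 Glis3-Pax8Cre(LID) mice at 394, 382, 624 and 439.9 CPM. No group overlapped another, and the Glis3-Pax8Cre mice were above the WT mice on both diets. Fn1 rose 2.94-fold with the LID in WT (1.56 ± 0.15, adjusted p = 1.47e-06) and 2.60-fold in Glis3-Pax8Cre (1.38 ± 0.15, adjusted p = 1.76e-05), and the interaction was -0.18 with an interval from -0.62 to 0.27. Under ND it was 1.46-fold higher in Glis3-Pax8Cre (0.55 ± 0.15, adjusted p = 0.0189), a call lost without Glis3-Pax8Cre(ND) replicate 3 (0.49, adjusted p = 0.0543). Under LID the difference was 0.37 ± 0.15 (adjusted p = 0.0723), with 0.45 (adjusted p = 0.0418) without Glis3-Pax8Cre(LID) replicate 2 and 0.51 (adjusted p = 0.00665) with scaling by library size alone.

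**Figure D3:**
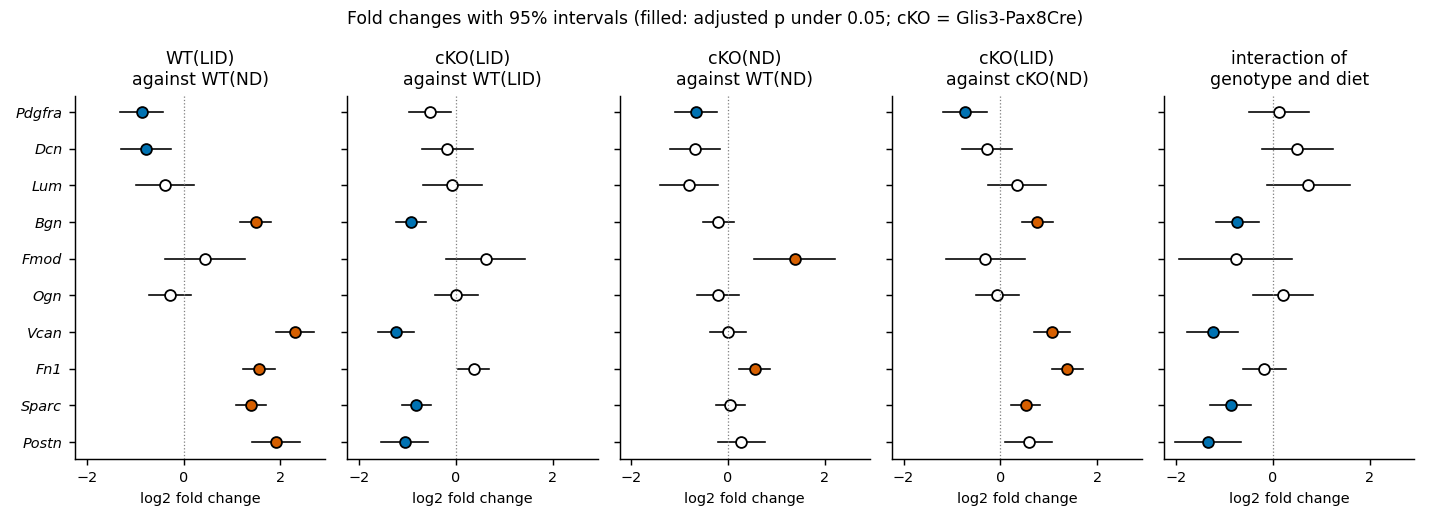
Log2 fold change of each of the 10 genes in 4 comparisons of groups and in the interaction (the diet response in Glis3-Pax8Cre minus that in WT), where cKO stands for Glis3-Pax8Cre; lines are 95% intervals and filled circles passed an adjusted p under 0.05, red for higher and blue for lower. In WT with the LID 5 genes lie from 1.39 to 2.30, and Bgn, Vcan, Sparc and Postn lie left of 0 both in the LID genotype comparison, from -1.23 to -0.82, and in the interaction, from -1.33 to -0.73.

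Counted by comparison, 2 of the 10 genes were called higher and 1 lower in Glis3-Pax8Cre under ND, where 10.3% and 9.25% of all genes were. The ND groups did not overlap for 2 higher and 0 lower genes, against 9.58% and 9.96% of all genes. Within Glis3-Pax8Cre the LID went with 4 called higher and 1 lower, against 13.1% and 12.3% of all genes, and the 2 diet groups did not overlap for 3 higher and 0 lower genes, against 11.8% and 10.2%. The interaction was called lower for 4 and higher for 0, against 7.41% and 4.43% of all genes. At an unadjusted p under 0.05 edgeR again had 4 lower and 0 higher interactions, and DESeq2 called 4 lower and 0 higher. With a stricter call that also asked for a change of more than 2-fold, at an adjusted p under 0.01, 5 genes were higher and 0 lower in WT with the LID, against 7.68% and 4.8% of all genes. By that call 2 genes, Vcan and Postn, were lower in Glis3-Pax8Cre under LID and 0 were higher, against 5.02% and 2.92% of all genes. With scaling by library size alone, calls over all genes split into 2434 higher and 5203 lower in WT with the LID (3476 and 3467 with TMM), 4121 and 1841 for genotype under LID (2471 and 2557), 2722 and 935 for genotype under ND (1714 and 1538), and 1297 and 3385 for diet within Glis3-Pax8Cre (2184 and 2039). The comparisons share mice with each other, so their values for a gene are not independent.

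The promoters of Bgn, Vcan, Sparc and Postn are shown because these genes moved together. Each is the 250 bases before the start of the gene as the count table gives it, from RefSeq on GRCm38.p6 (the assembly of mm10), 5′ to 3′ on the strand of the gene, and capitals mark matches to a TATA box (TATAAA) or a GC box (GGGCGG) on either strand. They lie at chrX:73483351-73483600 (+) for Bgn, chr13:89742513-89742762 (-) for Vcan, chr11:55420081-55420330 (-) for Sparc and chr3:54360857-54361106 (+) for Postn, all outside the gene as deposited and next to its start.
Bgn: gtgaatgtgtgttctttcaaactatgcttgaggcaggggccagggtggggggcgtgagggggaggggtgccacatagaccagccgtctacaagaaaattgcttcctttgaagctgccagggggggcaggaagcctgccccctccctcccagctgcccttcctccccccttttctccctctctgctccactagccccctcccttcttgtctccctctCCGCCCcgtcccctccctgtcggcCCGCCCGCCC
Vcan: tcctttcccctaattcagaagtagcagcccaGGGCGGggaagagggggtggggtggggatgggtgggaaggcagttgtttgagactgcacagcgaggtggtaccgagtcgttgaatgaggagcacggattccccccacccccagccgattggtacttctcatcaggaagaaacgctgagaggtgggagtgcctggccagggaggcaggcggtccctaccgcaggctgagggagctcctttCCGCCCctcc
Sparc: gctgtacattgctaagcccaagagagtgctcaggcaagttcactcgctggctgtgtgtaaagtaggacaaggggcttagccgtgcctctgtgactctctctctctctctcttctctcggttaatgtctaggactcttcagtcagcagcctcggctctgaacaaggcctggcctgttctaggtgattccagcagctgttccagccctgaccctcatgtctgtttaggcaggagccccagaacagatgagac
Postn: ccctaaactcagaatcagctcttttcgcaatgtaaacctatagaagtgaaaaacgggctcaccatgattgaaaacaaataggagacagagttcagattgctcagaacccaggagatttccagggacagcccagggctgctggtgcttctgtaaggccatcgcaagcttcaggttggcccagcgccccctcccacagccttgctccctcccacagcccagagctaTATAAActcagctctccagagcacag

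The 4 windows differed in these letters. Bgn held 3 GC boxes on the opposite strand, of which those at bases -10 to -5 and -6 to -1 from the start overlap, and Vcan held 2, at -219 to -214 and, on the opposite strand, -10 to -5. Postn held a TATA box at -26 to -21, and Sparc held none of the motifs searched. The AP-1 motif (TGANTCA) and the TEAD core (GGAATG) matched in none of the 4. Of 32817 promoter windows of the same length, 32.7% held a GC box, 12.4% a TATA box, 6.75% the AP-1 motif and 12.6% the TEAD core. GC content was 64.4% for Bgn, 62.4% for Vcan, 54.0% for Sparc and 52.0% for Postn, against a median of 52.4% over all windows. Matches are described as letters and not as binding sites, and windows for 7 of the 10 genes matched by symbol, 5 of them at the start of the gene as deposited.

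Levels can be ordered between the genes per kb of exon, counted over all annotated exons of a gene. In WT(ND) the order was Sparc (266 ± 14.0 CPM per kb), Dcn (114 ± 28.8), Bgn (54.5 ± 4.80), Postn (33.4 ± 8.39), Lum (20.7 ± 4.81), Ogn (14.7 ± 2.67), Fn1 (14.3 ± 2.14), Pdgfra (3.69 ± 0.833), Fmod (0.517 ± 0.246) and Vcan (0.422 ± 0.0229). Neighbours that overlapped in range there were Postn and Lum, Lum and Ogn, Ogn and Fn1, and Fmod and Vcan. In WT(LID) the order was Sparc (695 ± 45.8), Bgn (153 ± 11.5), Postn (126 ± 22.1), Dcn (66.1 ± 10.8), Fn1 (42.0 ± 2.44), Lum (15.8 ± 3.03), Ogn (12.2 ± 2.09), Vcan (2.08 ± 0.249), Pdgfra (2.03 ± 0.158) and Fmod (0.703 ± 0.321). Dcn thus went from rank 2 to rank 4, while Bgn took rank 2, and Bgn and Postn, Lum and Ogn, and Vcan and Pdgfra overlapped in range. In Glis3-Pax8Cre(LID) Sparc (395 ± 77.7) and Bgn (80.5 ± 17.4) again led, and the range of Postn (60.5 ± 19.5) overlapped with that of Bgn above it and those of Dcn (58.6 ± 13.7) and Fn1 (54.3 ± 13.2) below it.

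For each of the 10, the genes with the most similar profile were sought by the root mean square (RMS) difference of log2 CPM over the 16 mice, each gene centred on its own mean. Bgn was nearest to Col3a1 (RMS 0.139 log2 units), Col5a2 (0.149) and Srpx2 (0.152), and Sparc to Col6a1 (0.155), Ecm1 (0.158) and Serpinh1 (0.167). Col3a1, Col5a2 and Col6a1 encode collagen chains, and Serpinh1 encodes a collagen chaperone. Vcan was nearest to Fstl1 (0.229), Tinagl1 (0.247) and Ttc9 (0.250), and Postn to Gng11 (0.189), Loxl2 (0.217), which encodes a lysyl oxidase-like enzyme, and C1qtnf6 (0.226). Fn1 was nearest to Itga3 (0.175), an integrin chain, Sulf2 (0.184) and Galc (0.206). Dcn was nearest to Nova1 (0.177), Clec3b (0.225) and Hadh (0.229), Pdgfra to Pm20d2 (0.185), Tcerg1l (0.206) and Scrn1 (0.220), and Lum to Gas1 (0.233), Serpina3c (0.256) and F3 (0.261). Ogn was nearest to Spa17 (0.155), C1s1 (0.159) and Cables1 (0.169), and Fmod, at low counts, had no gene nearer than Gdpd2 (0.377), Slc19a3 (0.410) and Gpr141 (0.430). Among the 10 themselves Bgn and Sparc were the closest pair (0.177), followed by Pdgfra and Dcn (0.272).

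Other genes of the matrix moved in both directions, and in each list the called genes with the largest changes at a mean of at least 1 CPM are named. Over all genes tested, 20.9% were called higher and 20.8% lower with the LID in WT, and 14.9% and 15.4% in Glis3-Pax8Cre under LID. Of 37 other matrix glycoprotein genes tested, 25 were called higher and 4 lower with the LID in WT, with a median log2 fold change of 0.81, and between the LID groups 5 were higher and 19 lower in Glis3-Pax8Cre, with a median of -0.62. With the LID, Fbln2 (2.64) and Fbn1 (2.60), which encode a fibulin and the fibrillin of microfibrils, rose most among them, and Fbln7 (-1.29) and Ltbp2 (-1.07) fell most. In the LID genotype comparison Fbln2 (-1.98) and Ltbp4 (-1.70) were lowest, and Ltbp1 (1.08) and Efemp1 (0.87) were highest, where Ltbp1 and Ltbp4 encode proteins that bind latent TGF-beta. These genes thus showed, as Fn1 did, that not every glycoprotein gene was lower in Glis3-Pax8Cre(LID). Of 12 SPARC family and CCN genes, which encode matricellular proteins, 6 were higher and 2 lower with the LID in WT, led by Wisp2 (2.59) and Fstl1 (2.16) and by Spon1 (-1.26) and Wisp1 (-1.01), and 1 was higher and 6 lower in Glis3-Pax8Cre(LID), led by Spon1 (2.04) and by Wisp1 (-2.89) and Wisp2 (-2.41).

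**Figure D4:**
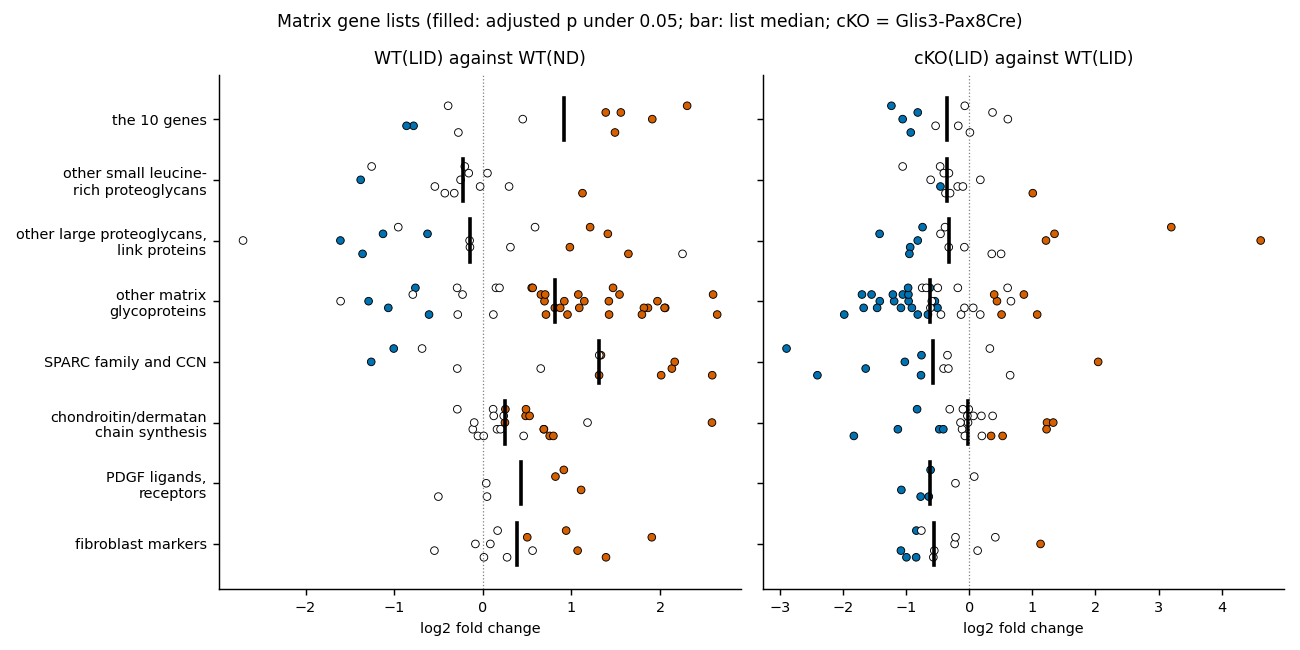
Log2 fold change of every gene tested in the matrix gene lists and the fibroblast marker list, in WT(LID) against WT(ND) on the left and Glis3-Pax8Cre(LID), written cKO(LID), against WT(LID) on the right; filled points passed an adjusted p under 0.05, red for higher and blue for lower, and vertical bars are list medians. Other matrix glycoproteins have a median of 0.81 on the left and -0.62 on the right, and the other small leucine-rich proteoglycans of -0.23 and -0.35.

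Of 15 other large proteoglycan and link protein genes, 4 were higher and 4 lower with the LID in WT, against 20.9% and 20.8% of all genes, and 4 higher and 5 lower in Glis3-Pax8Cre under LID, against 14.9% and 15.4%. Hspg2, which encodes the perlecan of basement membranes, rose with the LID (1.41) and was lower in Glis3-Pax8Cre(LID) (-1.42), and Prg4, which encodes lubricin, did the same (1.64 and -0.95). Spock3 (-1.13) and Esm1 (-0.62) fell with the LID, and Bcan (4.62) and Hapln1 (3.20) were higher in Glis3-Pax8Cre(LID). Of 22 genes for the synthesis of chondroitin and dermatan sulfate chains, which Bgn, Dcn and Vcan proteins carry, 10 were higher and 0 lower with the LID in WT, led by Chsy1 (2.58) and Chst3 (0.80). Under LID 5 of them were higher in Glis3-Pax8Cre than in WT, led by Chsy1 (1.33) and Xylt2 (1.23), and 5 lower, led by Chst3 (-1.83) and Chst7 (-1.13). Of the 6 other PDGF ligand and receptor genes 3 were higher and 0 lower with the LID in WT, led by Pdgfb (1.11) and Pdgfrb (0.91), the pair that serves pericytes, and 0 were higher and 4 lower in Glis3-Pax8Cre(LID), led by Pdgfb (-1.08) and Pdgfa (-0.77). Where 0 chain synthesis genes were called lower by edgeR, 0 had an unadjusted p under 0.05 and DESeq2 called 0, and for the PDGF genes these counts were 1 and 1 lower with the LID in WT and 0 and 0 higher between the LID groups. Pdgfra itself was thus lower with the LID while Pdgfb and Pdgfrb were higher.

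Markers of fibroblasts outside the 10 genes did not move as a block. Of 12 such markers 5 were higher and 0 lower with the LID in WT, against 20.9% and 20.8% of all genes. The 5 were Serpinf1 (1.91), Cd248 (1.39), the transcription factor gene Prrx1 (1.07), Meox1 (0.94) and Fap (0.50). The 7 that did not pass the test lay between -0.55 for Clec3b and 0.56 for Twist2. By edgeR 1 of the 12 was lower there at an unadjusted p under 0.05, and DESeq2 called 0 lower. Between the LID groups 1 was higher in Glis3-Pax8Cre and 4 were lower, against 14.9% and 15.4% of all genes. Higher was Scara5 (1.13), and lower were Prrx1 (-1.08), Cd248 (-0.99), Pi16 (-0.84) and Meox1 (-0.84). The summed level of the 12 markers was from 437 to 538 CPM in WT(ND), 737 to 813 in Glis3-Pax8Cre(ND), 872 to 995 in WT(LID) and 1161 to 1195 in Glis3-Pax8Cre(LID). Serpinf1 alone made up from 25.2% to 33.6% of it in WT(ND) and from 30.6% to 58.7% in Glis3-Pax8Cre(ND). In WT(LID) it made up from 54.7% to 59.7%, and in Glis3-Pax8Cre(LID) from 59.3% to 61.6%. Scara5 made up from 12.3% to 14.0% of the sum in WT(LID) and from 20.7% to 25.7% in Glis3-Pax8Cre(LID). Glis3-Pax8Cre(ND) replicate 4, the mouse at 2920 CPM of thymocyte markers, had the lowest shares of its group, 30.6% Serpinf1 and 15.1% Scara5. In the other mice of that group Serpinf1 made up from 48.6% to 58.7% and Scara5 from 20.8% to 22.1%. The 12 markers include Thy1, and the part of thymocytes in the sum and in ratios to the markers was not tested. No marker was at 0 in all mice. These marker genes were named after their values had been seen.

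Taken relative to these markers within each mouse, the differences of Bgn, Vcan, Sparc and Postn kept their direction, but their size depended on how the markers were combined. Against the geometric mean of the 12 markers, the log2 ratio in Glis3-Pax8Cre(LID) minus that in WT(LID) was -0.55 for Bgn, -0.87 for Vcan, -0.43 for Sparc and -0.69 for Postn, and against their sum it was -1.27, -1.59, -1.15 and -1.42, with no overlap between groups in any of these, beside -0.93, -1.23, -0.82 and -1.05 for the levels themselves. The ratio to the sum was lower without overlap under ND too, for 7 of the 10 genes. It was -0.87 for Bgn, -0.67 for Vcan and -0.63 for Sparc, and -0.37 with overlap for Postn. The sum that divides every gene was itself higher there, from 737 to 813 CPM against 437 to 538 CPM in WT(ND). Of the 12 markers, though, 1 was called higher and 0 lower under ND, against 10.3% and 9.25% of all genes. Their median log2 fold change was -0.32, with 8 below 0 and 4 above. By levels not taken relative to markers, 0 of the 10 genes were lower without overlap under ND, against 9.96% of all genes. Such a share was not counted for the ratios. Against the geometric mean the ND groups overlapped for Bgn, Vcan, Sparc and Postn, from -0.08 for Bgn to 0.43 for Postn. For Fn1 the difference between the LID groups was 0.75 without overlap against the geometric mean and 0.02 with overlap against the sum. In WT the diet difference of the ratio to the geometric mean was -1.36 for Pdgfra, -1.29 for Dcn, -0.90 for Lum and -0.80 for Ogn, all without overlap, and 0.97 for Bgn and 1.78 for Vcan. By the geometric mean 5 of the 10 genes were without overlap higher and 4 lower in WT with the LID. By levels not taken relative to markers, 23.7% of all genes were without overlap higher and 23.3% lower in that comparison.

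Markers of other cell types went in the direction of the 4 genes in some comparisons and not in others. The summed level of 8 endothelial markers, which define blood vessels, was from 762 to 994 CPM in WT(ND), 976 to 1450.4 in Glis3-Pax8Cre(ND), 2375 to 2642 in WT(LID) and 905 to 1252 in Glis3-Pax8Cre(LID). All 8 were called higher with the LID in WT, against 20.9% of all genes. Under LID 7 were called lower in Glis3-Pax8Cre than in WT, against 15.4%, and all 8 had an interaction called lower, against 7.41%. Of 8 pericyte and smooth muscle markers 4 were higher with the LID in WT, against 20.9% of all genes. In Glis3-Pax8Cre(LID) 4 were lower than in WT(LID), against 15.4%. The sums of the 8 ran from 465 to 608, 667 to 868, 994 to 1483 and 624 to 798 CPM in the same order of groups. Within Glis3-Pax8Cre, where Bgn, Vcan and Sparc rose with the LID, 0 endothelial markers were called higher and 2 lower. For pericyte and smooth muscle markers 1 was higher and 1 lower there, where 13.1% of all genes were called higher and 12.3% lower. Endothelial cells and pericytes are themselves known to express Sparc and Bgn, and the part of these cells in the differences was not tested. Adipocyte markers moved in the direction of Pdgfra and Dcn in WT, with 7 of 8 lower with the LID, against 20.8% of all genes. The adipocyte sums ran from 897 to 1760 CPM in WT(ND) and from 423 to 733 in WT(LID). So did 3 of 3 parathyroid markers move, with sums from 3477 to 6005 CPM in WT(ND) and from 858 to 1676 in WT(LID). The part of adipocytes and parathyroid cells was not tested either. All 8 macrophage markers were called higher in Glis3-Pax8Cre(ND) than in WT(ND), against 10.3% of all genes. Their sums ran from 352 to 414 CPM against 203 to 307, in the comparison in which Fn1 and Fmod were higher.

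**Figure D5:**
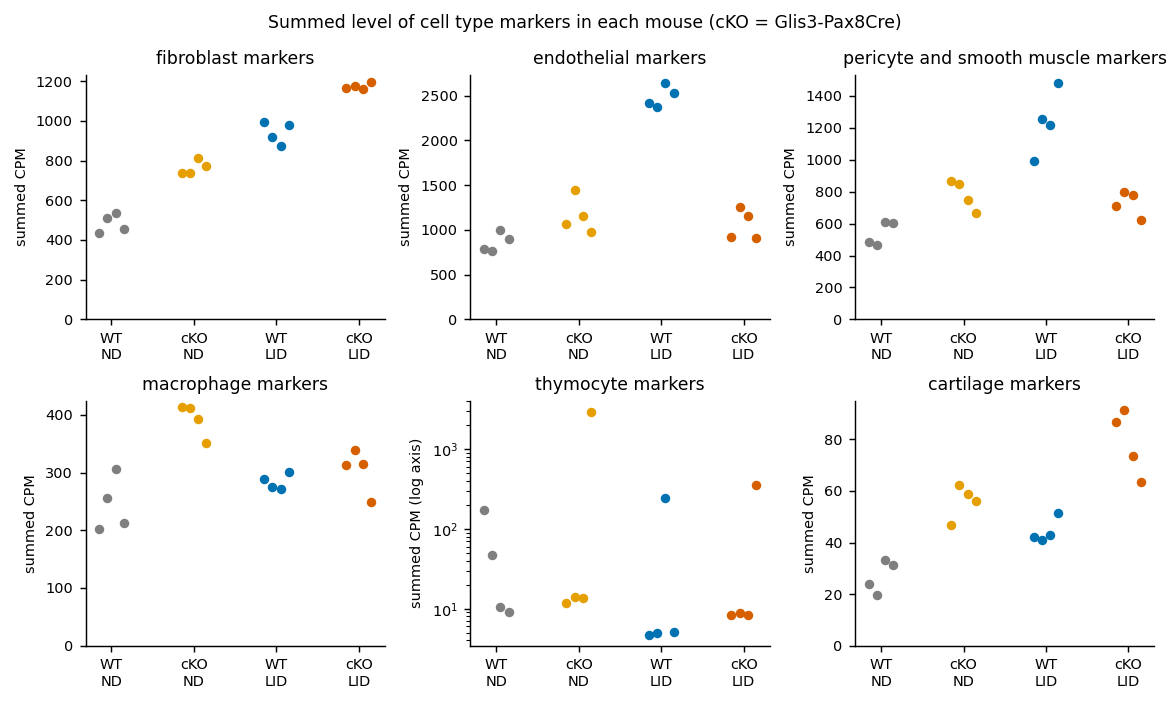
Summed level of the markers of 6 cell types in each mouse, in CPM of the TMM-scaled library size, on linear axes from 0 except for thymocyte markers, which are on a log axis, by group, where cKO stands for Glis3-Pax8Cre; points are mice. Endothelial and pericyte sums are highest in WT(LID), and the fibroblast sum is highest in Glis3-Pax8Cre(LID), from 1161 to 1195 CPM. Serpinf1 alone made up from 59.3% to 61.6% of that sum. Of the 12 fibroblast markers, 1 was called higher and 4 lower there than in WT(LID), against 14.9% and 15.4% of all genes. Thymocyte markers are high in 1 mouse of each group.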

How the data were processed

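RNA had been isolated from thyroid glands of 16 female mice, each a separate animal, and read in pairs on a NextSeq500 or NovaSeq, with the instrument per library not given in the sources used here. According to the methods and labels, the authors filtered read pairs for a mean base quality above 20, aligned those left with STAR (2.5) on the mm10 genome and counted pairs per RefSeq gene model with featureCounts (1.5.0-p1) without regard to strand. The deposited table holds these raw counts per gene and mouse. Columns were tied to samples, groups and replicate numbers by their labels, and 0 columns were left without a sample.

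Genes that passed filterByExpr (16630 of 25611) were scaled by TMM and fitted over all 16 mice with 1 mean per group, and edgeR's quasi-likelihood test (edgeR 4.0.16, limma 3.58.1, R 4.3.3) was applied with Benjamini-Hochberg adjustment over the whole table. SE and 95% intervals come from that fit, which was tested on simulated data. Levels per kb used exon lengths of GENCODE vM21, and promoters came from RefSeq (GRCm38.p6). Precision follows depth, and intervals of a count of 0 cover counting error only. Same-group pairs of mice differed by far more than counting noise (chi-square per degree of freedom from 33.0 to 364 over 24 pairs), so none was treated as a repeat. The labels give replicate numbers but state no pairing of mice. Within Glis3-Pax8Cre, deviations of same-numbered LID and ND mice correlated at 0.21 to 0.65 over genes. Differently numbered mice correlated there at -0.44 to 0.36, so the ranges overlapped. The value of 0.65 joined the replicate 4 mice, which were highest in thymocyte markers in both groups. The replicate 3 mice, which were not, correlated at 0.63. In the other comparisons same-numbered mice correlated at -0.52 to 0.14. Since the labels state no pairing, fits with replicate numbers as pairs are given only as alternatives.

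Alternatives were DESeq2 (1.42.0), RLE scaling, library size alone, Tg left out, all 21310 genes without the filter, only the 14265 genes that had 10 counts or more in each mouse, the mice of a comparison alone, the replicate block, a thymocyte marker score as a covariate, a stricter call, and each mouse left out. Fits without the 4 mice highest in thymocyte markers, and with the block in the 8 Glis3-Pax8Cre mice, were added after seeing the data. The 10 genes and all lists were chosen with earlier results of these data known. Besides the 10, genes are named when they had 1 of the 2 largest changes in a direction among those called in a list, at a mean of at least 1 CPM, when they adjoin a member on its chromosome, or when they are among the 3 nearest in profile. Fibroblast markers fall outside that rule and were named after their values had been seen. Glis3 exon 5 was not analysed here, as counts are per gene.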

Additional observations from a re-analysis of the deposited data

Results flagged for a closer look

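In 4 of 40 groups of 4 mice examined, 1 mouse lay far from the other 3 by the gap of Dixon's test, where chance flags about 1 in 20 groups. WT(ND) replicate 2 had 303 CPM of Dcn, with the nearest mouse at 201 CPM. Glis3-Pax8Cre(ND) replicate 2 had 5.23 CPM of Fmod, with the nearest at 3.91 CPM. WT(LID) replicate 1 had 32.9 CPM of Vcan, with the nearest at 26.8 CPM, and WT(LID) replicate 3 had 325 CPM of Fn1, below the nearest at 366 CPM.

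The response to the LID differed between the genotypes for 4 of the 10 genes, by the interaction test of edgeR adjusted over all genes. The difference on the log2 scale was -0.73 for Bgn, -1.24 for Vcan, -0.86 for Sparc and -1.33 for Postn, so each diet response was smaller in Glis3-Pax8Cre than in WT. Bgn missed the threshold in 9 of the 16 fits that left out a mouse. Postn missed it without the 4 mice highest in thymocyte markers (adjusted p = 0.0520).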

How the results depend on the processing

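Over all alternatives, 1222 log2 fold changes of the 10 genes kept their direction and side of the threshold, 23 came to pass it, 35 missed it and 20 changed sign, the last with neither value past the threshold. With the stricter call, 0 genes were lower in WT with the LID and 2 for genotype under LID, against 4.8% and 5.02% of all genes. It gave 0 higher and 0 lower for genotype under ND, 2 higher and 0 lower for diet in Glis3-Pax8Cre, and 1 lower interaction. For genotype under ND, diet in Glis3-Pax8Cre and the interaction, the share of all genes by this call was not counted. Those counts therefore cannot be set against all genes. Library size alone gave 1 higher under LID and 0 lower under ND for genotype, turned Lum under LID to 0.072, and moved the median of all genes by -0.16, 0.15, 0.12 and -0.13 in the 4 comparisons, in the order WT diet, genotype under LID, genotype under ND and Glis3-Pax8Cre diet. Without the 4 mice highest in thymocyte markers 1 gene was higher and 0 lower under ND. DESeq2 and the thymocyte score each gave 3 lower under ND, and fits of the 8 mice alone gave 0 lower there and 0 lower for diet in Glis3-Pax8Cre. With at least 10 counts in every mouse Ogn under LID was -0.0032.

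The replicate block in all mice gave 3 lower under ND, adding Dcn (-0.72, adjusted p = 0.0254) and Lum (-0.88, 0.0172), added Pdgfra under LID (0.0211), and turned Ogn under LID to -0.022 and Vcan under ND to -0.015. Beside these and Postn in the 8 Glis3-Pax8Cre mice, it changed no other call of the 10 genes.

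With each mouse left out, 1 to 2 genes were lower in WT with the LID, 0 to 1 higher for genotype under LID, 1 to 2 higher and 0 to 3 lower under ND, and 0 to 1 lower for diet in Glis3-Pax8Cre. Lum (-0.29 to 0.069) and Ogn (-0.13 to 0.14) under LID, Vcan (-0.10 to 0.10) and Sparc (-0.062 to 0.16) under ND, Ogn for diet in Glis3-Pax8Cre (-0.21 to 0.084) and the interaction of Pdgfra (-0.037 to 0.26) crossed 0. Fmod rested on the fewest counts, with 59 in its lowest library.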

Other observations

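Markers of other tissues near the gland were measured as well, with values only. The summed level of 8 skeletal muscle markers varied widely among mice of a group, from 7.36 to 435 CPM in WT(ND), 4.92 to 1510 CPM in Glis3-Pax8Cre(ND), 2.82 to 1132 CPM in WT(LID) and 3.43 to 916 CPM in Glis3-Pax8Cre(LID). The sum of 4 markers of C cells, which make calcitonin, was from 7419 to 9722 CPM in WT(ND), 3518 to 5980 CPM in Glis3-Pax8Cre(ND), 2513 to 3879 CPM in WT(LID) and 1495 to 3426 CPM in Glis3-Pax8Cre(LID). Tendon markers ran from 83.7 to 165 CPM and Schwann cell markers from 63.9 to 172 CPM over all mice, and in each of these 2 lists the groups overlapped.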
